A study of Homo sapiens with 17 samples.

Results

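EZH2 loss was set beside EZH2 gain in NKYS cells, gene by gene. NKYS is an established line of natural killer cell lymphoma, grown here with interleukin-2. Loss was the log2 difference between an array of EZH2 siRNA and the control siRNA array that its title names, in 2 such pairs. Gain was the log2 difference between arrays of cells given a plasmid with full-length EZH2 and the vector control of the same set, in 2 sets of 3 plasmids and 1 vector. These are 12 of the 17 arrays of the series. The remaining arrays hold JAK3 siRNA and its own control siRNA, 2 arrays each, and 1 plasmid that lacks the SET domain of EZH2. All arrays came from electroporated cells of the same line, and the labels name no separate cultures, so each p-value reflects the spread among arrays that may be technical repeats.

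Each set held plasmids titled Y244D, Y244A and WT, where the first 2 names stand, in the usual notation, for a tyrosine of EZH2 replaced by aspartate or by alanine. In set 2 the titles and the transfection labels disagree on which construct is which, and the array titled WT carries no set number in its title. Arrays are therefore named by their titles, and gain was taken over all 6 plasmids, which holds under either reading. The 3 plasmids of a set share 1 vector array. Counts of plasmid arrays above or below their vectors, here and below, thus rest on 2 vector readings and are not 6 independent repeats. Of 14434 genes tested, 763 were opposed in loss and gain with 1 sign in both pairs and the other sign in the means of both sets, and 866 moved alike in all 4. The measured values chose these genes, so their directions are a description and carry no test.

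EZH2 is the catalytic subunit of Polycomb repressive complex 2, which methylates histone H3 at lysine 27 through its SET domain and keeps target genes silent together with EED and SUZ12. In natural killer cell lymphoma EZH2 is also known to switch on genes of cell proliferation without its partner proteins, a role tied to its phosphorylation by JAK3. Repressed targets would be looked for among genes higher after loss and lower after gain, and activated targets among genes lower after loss and higher after gain.

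EZH2 itself was the gene with the clearest opposed values. Its signal was 926 in the control and 501 after siRNA in pair 1, and 691 and 489 in pair 2. In set 1 the vector array read 259, the Y244D plasmid 2221, the Y244A plasmid 853 and the WT plasmid 1020. In set 2 the vector read 349.5 and the plasmids titled Y244D, Y244A and WT read 802.5, 1177 and 881. Both siRNA arrays were below both controls, and all 6 plasmid arrays were above both vectors. EZH2 fell by 0.69 on the log2 scale after siRNA (SE 0.088, a 1.62-fold loss, limma adjusted p = 0.0269), and it was 1.85 higher with the plasmids (SE 0.33, 3.6-fold). The gain did not pass adjustment over all genes (limma unadjusted p = 0.00018, adjusted p = 1). An exact permutation test of the 6 plasmids against the 2 vectors gave p = 0.0714, two-sided, the smallest that the 28 arrangements allow. With arrays exchanged only within a set, the exact permutation p was 0.125, two-sided, the smallest of 16 arrangements, so neither form could pass 0.05. Loss minus gain was -2.54 (SE 0.50, limma unadjusted p = 0.000284, adjusted p = 1). One probe set gave these values, and the cells' own transcript was not told apart from that of the plasmid.

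**Figure D1:**
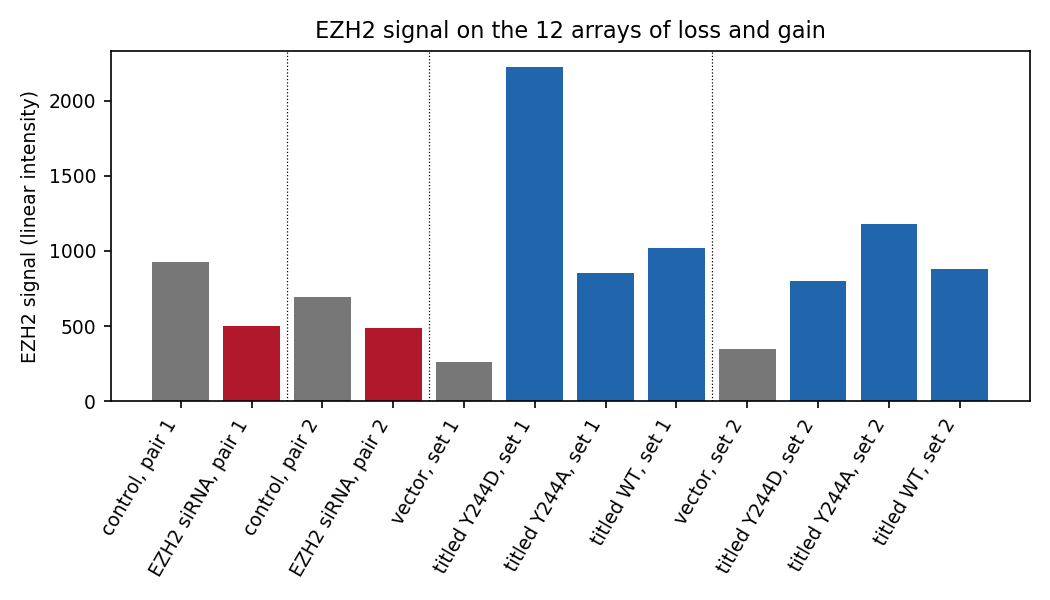
EZH2 signal (linear intensity, bars from 0) on the 12 arrays, 1 bar per array: control siRNA and vector in grey, EZH2 siRNA in red, plasmids in blue. The siRNA arrays read 501 and 489 against 926 and 691 in their controls, and the plasmid arrays span 802.5 to 2221 against vectors of 259 and 349.5.

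The arms did not start from the same level of EZH2. The mean signal was 808 ± 166 (SD, n = 2) in the control siRNA arrays and 304 ± 64.1 (SD, n = 2) in the vector arrays, so the siRNA arrays at 495 ± 8.6 (SD, n = 2) still read above both vectors. The plasmid arrays averaged 1159 ± 538 (SD, n = 6). The arms also differed in the spread of their arrays. The interquartile range of log2 signal was 2.27 to 2.3 in the 4 arrays of the EZH2 siRNA arm and 1.79 to 2.18 in the 8 plasmid and vector arrays. JAK3 was lower after its own siRNA (log2 -1.24, SE 0.069, limma adjusted p = 5.54e-06), which checks those labels. Summed signal of 27 natural killer genes was 9157 to 12980 in the control siRNA arrays, 13460 to 14130 after EZH2 siRNA, 6899 to 7436 in the vectors and 6492 to 8939 with the plasmids. Over the same arrays 5 B-cell markers summed to 277 to 380, 9 T-cell markers to 696 to 940, 9 monocyte markers to 555 to 679 and 9 epithelial and fibroblast markers to 621 to 1161. The last sum was 701 in 1 vector and 1161 in the other. In bulk RNA, fewer cells of a state and less RNA per cell cannot be told apart.

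After EZH2 siRNA, 59 genes rose (0.409% of those tested) and 94 fell (0.651%) at a limma adjusted p under 0.05. No gene passed in the plasmid arrays (0%), where 57 genes had an unadjusted p under 0.05 (0.395%). No gene passed in the test of loss minus gain or in that of their mean (0% each), where 107 and 147 genes had an unadjusted p under 0.05. The median standard error was 0.077 for loss, 0.143 for gain and 0.214 for their difference. The calls after loss depend on the arrays and the fit: without pair 1 no gene passed and without pair 2 there were 1516 calls, with the lone pair assumed to vary like the JAK3 arm; without the pair as a block 20 passed, and with no filter, with array weights, or with the 12 or 16 arrays in 1 fit none did. The split also moved with scaling. Quantile-normalized arrays gave 60 higher and 39 lower genes, and arrays set to a common median gave 35 and 172.

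The 2 pairs resembled each other more than the 2 sets did. Across genes, which are not independent replicates, the effects of pair 1 and pair 2 had Pearson's r = 0.171. The effects of set 1 and set 2 had r = -0.601, although the sets share no array. One sign was shared by both pairs in 7470 genes (51.8%), by both sets in 3338 (23.1%) and by all 6 plasmids in 587 (4.07%). Genes of high mean signal lay higher than the vector in set 1 (r with mean log2 signal 0.546) and lower than the vector in set 2 (r = -0.416). The spread of the arrays moved with this: in set 1 the interquartile range was 1.79 in the vector and 1.95 on average in the plasmids, and in set 2 it was 2.18 in the vector and 2.09 in the plasmids. The set 1 and set 2 correlation was -0.482 after quantile normalization, which gives all arrays the same spread, and -0.431 after cyclic loess. With the array spread as a covariate no gene passed in the plasmid arrays, as without it.

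**Figure D2:**
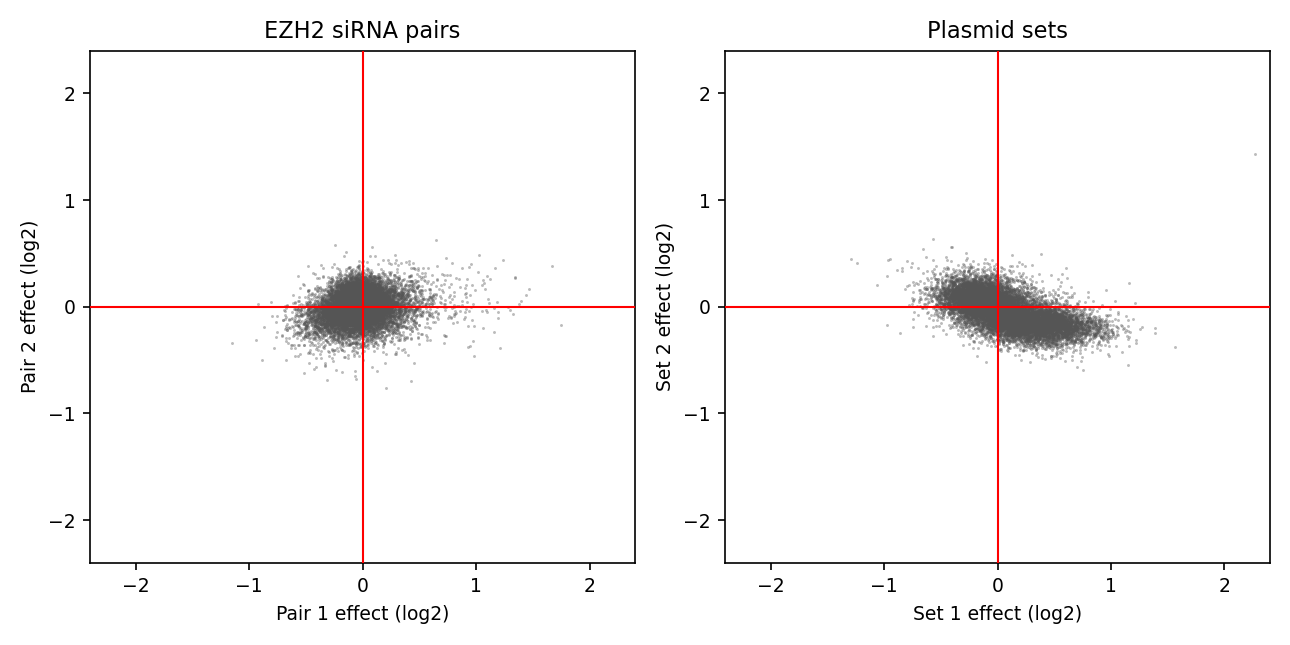
Each point is 1 of 14434 genes. Left, the log2 effect of EZH2 siRNA in pair 1 (x axis) and pair 2 (y axis); right, the mean log2 difference of 3 plasmids from their vector in set 1 (x axis) and set 2 (y axis). The cloud on the right slopes down (r = -0.601), and EZH2 is the point at 2.27 and 1.43 in its upper right.

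In set 2, the array titled Y244A stood apart from the other two plasmids. The standard deviation of its differences from the vector over all genes was 0.319, against 0.116 and 0.124 for the arrays titled Y244D and WT; in set 1 the 3 values were 0.243, 0.461 and 0.35. Its interquartile range was 1.99 and theirs were 2.14 each. Without that array the correlation between the sets was -0.205, and the opposed genes numbered 1678 in place of 763.

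Families of abundant transcripts show the split between the sets. All 26 ribosomal protein genes tested were higher than the vector in set 1 (median log2 0.40) and 25 of them lower in set 2 (median -0.14), so only RPL22 could be opposed. All 15 heat shock and chaperone genes were higher in set 1 (median 0.43) and lower in set 2 (median -0.12). Their medians after loss were -0.32 in pair 1 and -0.12 in pair 2, and none of the 15 was opposed or alike. These set directions held with quantile normalization and median centring and not with cyclic loess. After cyclic loess the set medians were -0.03 and 0.02 for the ribosomal proteins and 0.003 and 0.02 for the chaperones, while the pair medians of the chaperones stayed below 0, at -0.29 and -0.09.

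Most partners of EZH2 were in neither class. Of 12 genes of Polycomb repressive complex 2 tested, EZH2 was the only one to pass after loss; EZH2 and EZHIP were opposed, 1 in each direction (8.33%, against 2.27% and 3.02% of all genes), and none was alike. SUZ12, the scaffold of the complex, had pair effects of -0.05 and -0.04 and set means of 0.44 and -0.23. EED, which reads the methylated histone, had pair effects of -0.15 and 0.02 and set means of -0.04 and -0.15. EZH1, the other catalytic subunit, had 0.36 and -0.13 in the pairs and 0.18 and -0.01 in the sets. JARID2, which helps to recruit the complex, had 0.68 and 0.16 in the pairs, short of the threshold (limma adjusted p = 0.0686), and 0.13 and -0.08 in the sets. PHF1, MTF2, RBBP4 and RBBP7 were like SUZ12 in the signs of their set means, with set 1 means of 0.37 to 0.55 and set 2 means of -0.10 to -0.30. Of the 12 genes, 10 were higher than the vector in set 1 and 11 lower than it in set 2; after cyclic loess these counts were 4 and 7.

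Loss and gain showed no common axis across genes. Pearson's r between the mean loss and the mean gain was -0.075 (Spearman's rank correlation -0.106), and the 4 values for 1 pair against 1 set ran from -0.309 to 0.277. The sign rule held 436 genes up after loss and down with gain (3.02%), 327 down after loss and up with gain (2.27%), 360 up in both (2.49%) and 506 down in both (3.51%). Most of these were small. With at least 0.1 on the log2 scale in each pair and each set, 37 genes were opposed and 58 alike. At 0.2 there were 4 and 8, and at 0.3 EZH2 was the only gene in either class. Asking for 1 sign in all 6 plasmids left 147 opposed and 148 alike genes.

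**Figure D3:**
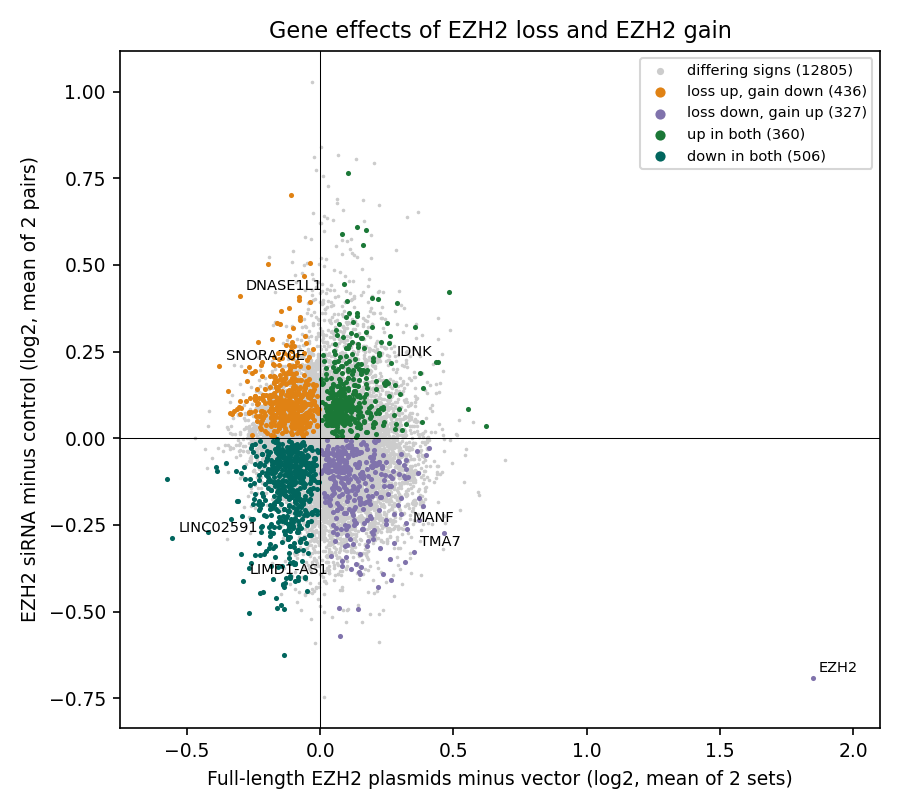
Mean log2 difference of the 6 plasmids from their vectors (x axis) and mean log2 effect of EZH2 siRNA (y axis), 1 point per gene; colour gives the class by sign in both pairs and both sets, with the number of genes. EZH2 lies alone at a gain of 1.85 and a loss of -0.69, and the other genes form 1 round cloud.

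Among genes up after loss and down with gain, DNASE1L1 led the ranking by the smallest of the 4 effects. It encodes a relative of the nuclease DNase I. Its signal was 79.8 in the control and 110.2 after siRNA in pair 1, and 95.5 and 122 in pair 2. The vector of set 1 read 91.0 and its plasmids 77.8, 78.4 and 61.9; the vector of set 2 read 82.5 and its plasmids 71.3, 60.4 and 74.0. Both siRNA arrays lay above both controls, and each plasmid array lay below the vector of its own set. DNASE1L1 rose by 0.41 after siRNA (SE 0.071, limma adjusted p = 0.0311), and its gain was -0.30 (SE 0.136, limma unadjusted p = 0.0499). Loss minus gain was 0.71 (SE 0.20, limma unadjusted p = 0.00412, adjusted p = 1). The ranking used the same arrays as this test. Unadjusted p-values of the ranked genes, here and below, are therefore low by selection and are no support.

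The other 9 leading genes of that direction did not pass the test in either arm. SNORA70E and SNORA70G encode near-identical small nucleolar RNAs that guide pseudouridylation, so the array may not separate them. SNORA70E had effects of 0.25 and 0.17 in the pairs and -0.57 and -0.19 in the sets, and all 6 plasmid arrays were below their vectors. BAALC-AS2, an antisense transcript, and ABCA3, a lipid transporter, were likewise below the vector on all 6 plasmid arrays. ABCA3 read 232 in the control and 251 after siRNA in pair 1, and 231 and 255 in pair 2; its gain was -0.17 (SE 0.12). KCNAB2, a subunit of voltage-gated potassium channels, was the most abundant of the 10, with 456 and 498 in pair 1 and 429 and 493 in pair 2, and 5 of 6 plasmid arrays lay below their vectors. SPATA3, TMEM198B, OR3A1 and WDPCP had smallest effects between 0.11 and 0.16. OR3A1, an olfactory receptor, read 39.3 to 56.4 on the 12 arrays and BAALC-AS2 38.8 to 59.4, both close to the filter floor of 39.6. With a filter at the 50th percentile 4 of these 10 genes were tested. The first gene left out of the 10 was LCE5A, at 0.11.

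Genes named in the literature as silenced by EZH2 gave small values. Of 22 genes listed, 12 were tested. The others fell under the filter on low signal or had no probe set with 1 gene symbol. Of the 12, CDKN2A, IRF4 and PRDM1 were up after loss and down with gain (25%, against 3.02% of all genes), and none passed the test in either arm. CDKN2A, which encodes the inhibitors p16 and p14ARF, had pair effects of 0.19 and 0.20 and set means of -0.06 and -0.19. PRDM1 encodes the transcription factor BLIMP1; its pair effects were 0.22 and 0.02 and its set means -0.01 and -0.01. IRF4, a lymphoid transcription factor, had set means of -0.003 and -0.06. EZHIP, an inhibitor of the complex, had pair effects of 0.17 and 0.07 and set means of -0.41 and -0.12, below the vector on all 6 arrays. NCAM1, the surface marker CD56 from the natural killer list, had pair effects of 0.03 and 0.15 and set means of -0.35 and -0.26. It was also below the vector on all 6. It was the only opposed gene of 20 natural killer genes tested (5%, against 3.02% of all genes), and 18 were in neither class. Of the 20 genes, 7 were lower in pair 1 and 8 in pair 2, with medians of 0.07 and 0.06. The summed signal of natural killer genes given above was higher after loss, and its part was not tested.

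In the direction down after loss and up with gain, DLEU1 followed EZH2. DLEU1 is a long non-coding RNA from a region deleted in lymphocytic leukaemia. It read 78.5 in the control and 65.7 after siRNA in pair 1, and 98.3 and 72.4 in pair 2. The vectors read 40.3 in each set, the set 1 plasmids 50.8, 42.0 and 51.6, and the set 2 plasmids 53.2, 45.4 and 48.1. All 6 plasmid arrays were above the vectors of their own sets, at a level near the filter floor of 39.6. DLEU1 fell by 0.35 after siRNA (SE 0.073, limma adjusted p = 0.049), and loss minus gain was -0.61 (SE 0.19, limma unadjusted p = 0.00686, adjusted p = 1).

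TMA7 and MANF were better expressed. TMA7, a small protein found with the translation machinery, read 347 and 292 in pair 1 and 416 and 315 in pair 2. Its vectors read 227 and 288, its set 1 plasmids 327, 317 and 343 and its set 2 plasmids 315.5, 327 and 329. Each plasmid array lay above its vector, and loss minus gain was -0.68 (SE 0.18, limma unadjusted p = 0.00242, adjusted p = 1). MANF, a secreted protein of the endoplasmic reticulum that is induced by stress there, read 489 and 395 in pair 1 and 518 and 447 in pair 2. Its vectors read 488 and 444, and the 6 plasmids 479 to 757. HSPA5, the main chaperone of the endoplasmic reticulum, had effects of -0.28 and -0.06 in the pairs and 0.58 and 0.03 in the sets, above the vector on all 6 arrays. It was the only opposed gene among 25 tested from the list on ATF4 and endoplasmic reticulum stress.

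H2AC4, a replication-dependent histone H2A gene, read 864.5 and 607 in pair 1 and 747 and 619 in pair 2. Its vectors read 489 and 355, and the plasmids 510.0, 553 and 680.0 in set 1 and 376, 435 and 443 in set 2. All 6 were above their vectors, though the loss missed the threshold (log2 -0.39, SE 0.086, limma adjusted p = 0.0532). CDCA3, which directs the cell-cycle kinase WEE1 to destruction before mitosis, read 228 and 160.4 in pair 1 and 198 and 164 in pair 2. CDCA3 fell by 0.39 (SE 0.083, limma adjusted p = 0.049), and 5 of 6 plasmids were above their vectors, by 0.15 in the mean of each set. SNORD77, CYP19A1 (aromatase), PRDM8 and the pseudogene FAM90A27P completed the 10, with smallest effects of 0.13 to 0.17. CCND3, cyclin D3, and RPL22 were opposed in the same direction, with set 2 means of 0.03 and 0.12. The first gene outside the 10 was H3-5, at 0.13.

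**Figure D4:**
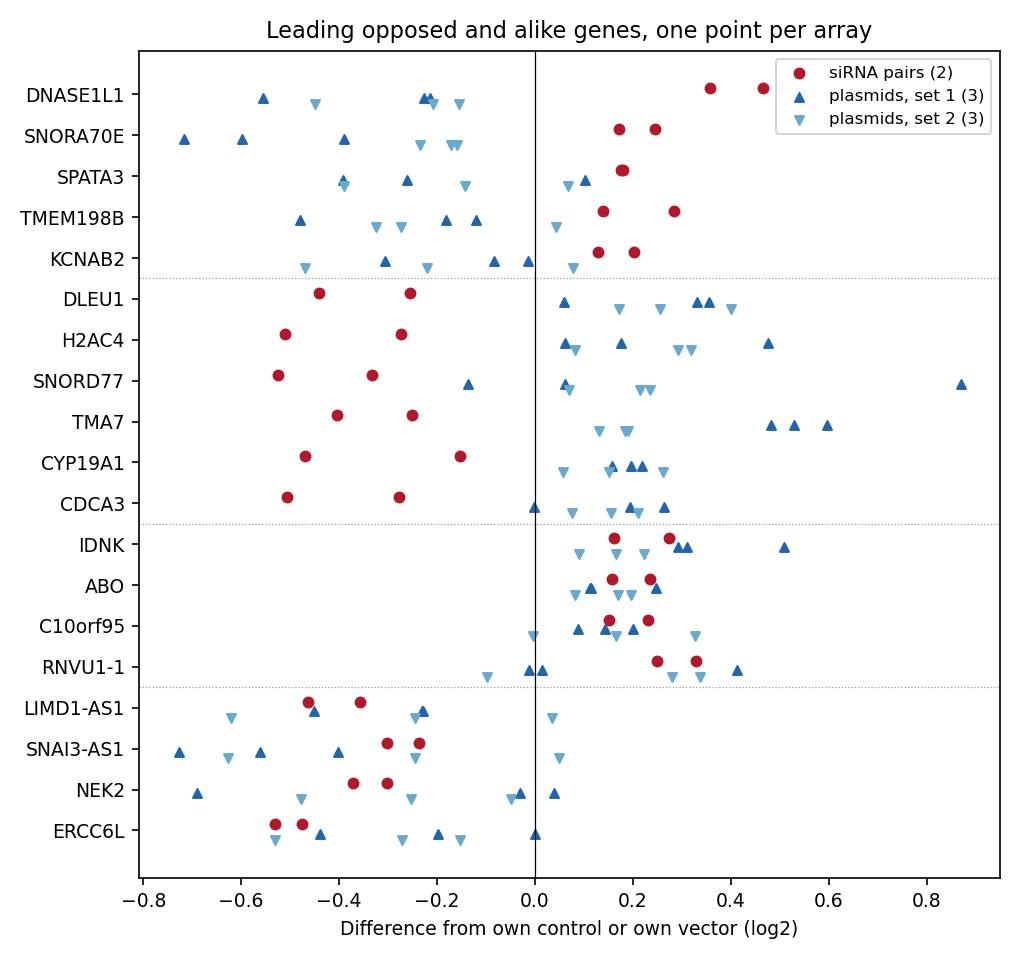
Log2 difference of each array from its own control or vector (x axis) for leading opposed and alike genes other than EZH2 (y axis), with 2 siRNA pairs in red and 3 plasmids per set in blue. Dotted lines part the genes up after loss and down with gain, down after loss and up with gain, up in both, and down in both; TMA7 and DNASE1L1 have all plasmid points on 1 side of 0.

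Genes called after siRNA were mostly higher than the vector in set 1 and lower in set 2, whichever way they had moved after loss. Set 1 was higher in 81.4% of the genes that rose and in 78.7% of those that fell, against 55.1% of all genes, and set 2 in 15.3% and 11.7%, against 40.9%. Of the 59 that rose, 7 were down in both sets (11.9%, against 13.6% of all genes) and 5 up in both (8.47%, against 9.55%). The other 47 differed between the sets (79.7%, against 76.9% of all genes). Of the 94 that fell, 8 were up in both sets (8.51%), 17 down in both (18.1%) and 69 differed (73.4%). The groups of 7, 5 and 8 were thus smaller shares than those of all genes, and their members are a description. The 7 were DNASE1L1, SMAD3, MIR570HG, FAM234A, PEX5L, GAA and FOSL2. SMAD3, a transducer of TGF-beta signals, rose by 0.38 after siRNA (SE 0.069, limma adjusted p = 0.0401) and had set means of -0.15 and -0.09, below the vector on 5 of 6 arrays; it also rose after JAK3 siRNA (log2 0.47, SE 0.069, limma adjusted p = 0.00596). GAA, the lysosomal alpha-glucosidase, rose by 0.39 and had set means of -0.07 and -0.01. The 8 included EZH2, DLEU1, CDCA3, LIX1, TPT1, TRIB2 and SNORA2B. TRIB2, a pseudokinase, fell by 0.49 and had set means of 0.06 and 0.08.

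The 17 genes that fell after siRNA and were also down in both sets included POLR3K and POLR3G, subunits of RNA polymerase III. POLR3K fell by 0.49 (SE 0.078, limma adjusted p = 0.0269), with set means of -0.17 and -0.16. POLR3G fell by 0.36 (SE 0.072, limma adjusted p = 0.0437), with set means of -0.16 and -0.07. WDR4, part of a tRNA methyltransferase, WDR46, which acts in ribosome assembly, NDC1, a nuclear pore protein, and SLC29A1, a nucleoside transporter, were among the others. The 5 genes that rose after siRNA and were up in both sets were GADD45A, IL1R1, IDH2, RBM8A and SIAE. GADD45A, a stress-inducible growth arrest gene, rose by 0.60 (SE 0.092, limma adjusted p = 0.0269) and was above the vector on all 6 plasmid arrays, by 0.25 in set 1 and 0.10 in set 2.

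The 8 leading genes down in both loss and gain were LIMD1-AS1, SNAI3-AS1, NEK2, ERCC6L, LINC02591, ANAPC11, TRIP13 and KNL1. LIMD1-AS1 read 29.7 to 55.4 on the plasmid and vector arrays, near the filter floor of 39.6. NEK2 is a kinase of centrosome separation, ERCC6L a translocase on stretched DNA between sister chromatids, ANAPC11 the RING subunit of the anaphase-promoting complex, TRIP13 an ATPase of the spindle checkpoint and KNL1 a kinetochore scaffold. ERCC6L read 146 and 105 in pair 1 and 150 and 103.5 in pair 2. Its vectors read 46.5 and 48.6 and its 6 plasmids 33.7 to 46.5, near the same floor. It fell by 0.50 after siRNA (SE 0.084, limma adjusted p = 0.028), and the mean of loss and gain was -0.38 (SE 0.108, limma unadjusted p = 0.00422, adjusted p = 1). TRIP13 read 486 and 336 in pair 1 and 426 and 366.5 in pair 2. Its vectors read 95.4 and 98.5 and its 6 plasmids 73.3 to 87.4, so each plasmid array was below its own vector. The vectors thus held a small part of the TRIP13 signal of the control siRNA arrays. The last gene named was KNL1, at a smallest effect of 0.20, and the next was KCTD6, at 0.19.

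Mitosis genes were the list with the largest share down in both: 10 of 29 tested (34.5%, against 3.51% of all genes), with none opposed. They were AURKB, BIRC5, CDCA8, CENPF, KIF11, KIF23, MAD2L1, NDC80, NEK2 and TOP2A. Both pairs and set 2 were nearly uniform, with 28 members lower in pair 1 (median log2 -0.37), 27 in pair 2 (median -0.17) and 29 in set 2 (median -0.17). Set 1 was not: 10 members were lower and the other 19 higher than the vector (median 0.09), up to 0.66 for CCNB2. The count of 10 is therefore the number lower in set 1. In set 1 as deposited, 6483 of all 14434 genes were lower, a larger share than 10 of 29. Without regard to set 1, 26 of the 29 were lower in both pairs and set 2, as were 3024 of all genes (21%). Of these, 10 of the 26 and 506 of the 3024 were also lower in set 1. The part of set 1 in the excess over 3.51% was not tested. The set 1 median was above 0 with quantile normalization and median centring (0.19 and 0.16) and below 0 with cyclic loess (-0.08), and the count was 9, 6 and 16 in turn; the medians of both pairs and of set 2 stayed below 0 under all 3. No mitosis gene was below its vector on all 6 plasmid arrays. Leaving out 1 plasmid array moved the count to 6 without the array titled Y244D in set 1, 16 without Y244A in set 1, 5 without WT in set 1 and 6 without Y244A in set 2, where 11 members were then opposed. Of the 29 genes, 2 passed the test after siRNA, BUB1 and CCNA2, both lower, against 94 of all 14434 genes (0.651%). Neither is among the 10. KIF11, the kinesin that separates spindle poles, had effects of -0.37 and -0.24 in the pairs and -0.28 and -0.18 in the sets. On the array with the SET-deleted plasmid, all 29 were below the mean of the vectors, by a median of 0.46; these values share the vectors with the gain.

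**Figure D5:**
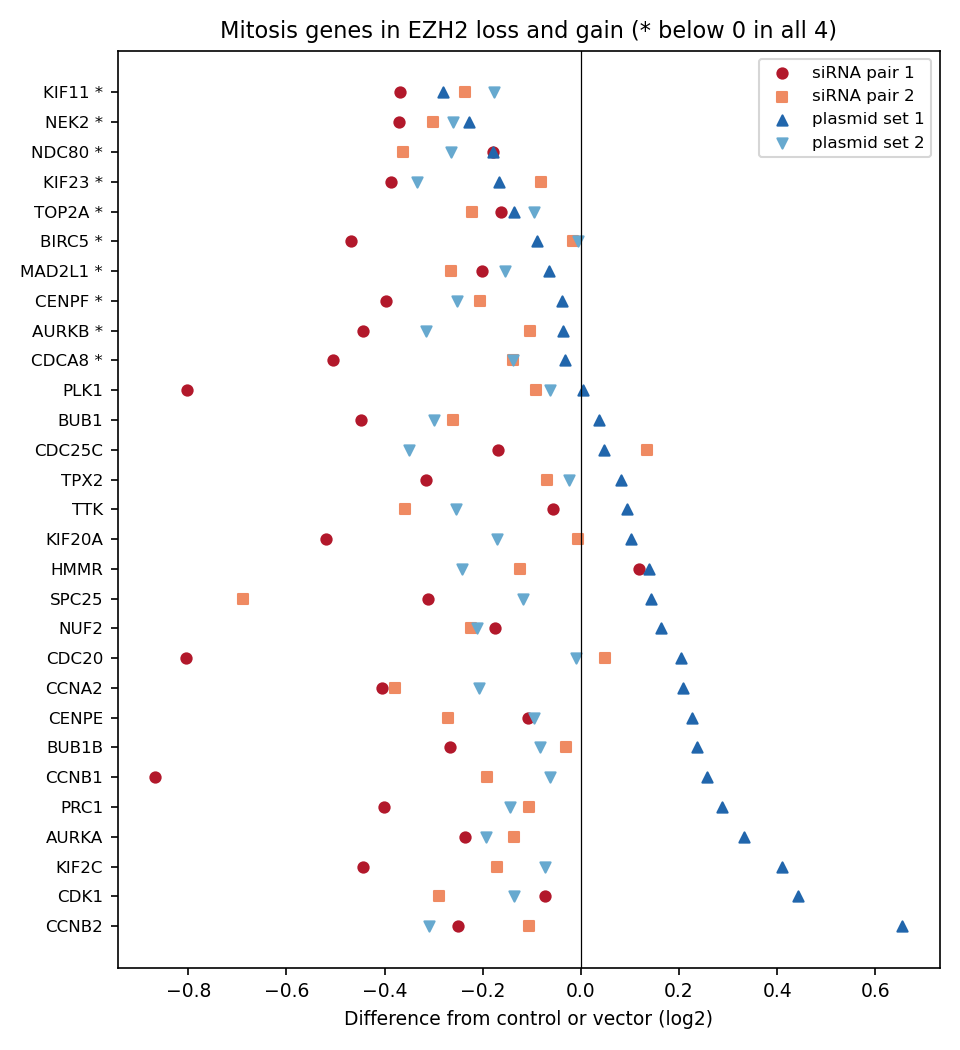
Log2 differences of 29 mitosis genes (y axis) in siRNA pairs 1 and 2 and as means of plasmid sets 1 and 2 (x axis), 1 marker per pair or set; an asterisk marks the 10 genes below 0 in all 4. The set 2 markers lie left of 0 for all 29 genes, while those of set 1 run from -0.28 to 0.66.

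The promoters of leading mitosis genes are shown because their members lay low together in the siRNA arm and in set 2. In cell-cycle genes of this kind a CHR element (TTTGAA) and CCAAT boxes often stand near the start, where the DREAM complex and NF-Y bind. The next lines give the 120 bases before the RefSeq start (GRCh38.p14) of 4 mitosis genes that were down in both and of CDCA3, which was opposed, 5′ to 3′ on the strand of the gene. Capitals mark CHR and CCAAT on either strand (TTCAAA and ATTGG when read on the other strand). The windows are chr10:92593010-92593129, plus strand, for KIF11, chr15:69414229-69414348, plus strand, for KIF23, chr1:37692396-37692515, plus strand, for CDCA8, chr1:211675622-211675741, minus strand, for NEK2, and chr12:6851287-6851406, minus strand, for CDCA3.
KIF11: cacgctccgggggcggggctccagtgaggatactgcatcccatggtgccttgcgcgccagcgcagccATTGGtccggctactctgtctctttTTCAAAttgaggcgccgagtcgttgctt
KIF23: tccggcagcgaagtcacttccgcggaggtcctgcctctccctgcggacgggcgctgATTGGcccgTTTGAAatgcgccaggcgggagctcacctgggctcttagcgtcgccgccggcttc
CDCA8: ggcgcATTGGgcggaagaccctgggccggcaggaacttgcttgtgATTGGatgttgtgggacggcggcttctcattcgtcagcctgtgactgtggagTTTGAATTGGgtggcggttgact
NEK2: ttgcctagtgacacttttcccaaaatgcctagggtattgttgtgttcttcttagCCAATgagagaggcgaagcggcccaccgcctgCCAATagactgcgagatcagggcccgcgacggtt
CDCA3: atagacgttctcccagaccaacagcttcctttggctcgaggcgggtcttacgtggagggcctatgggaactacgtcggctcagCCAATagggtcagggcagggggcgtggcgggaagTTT

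KIF11 has its CHR 28 bases before the start, KIF23 at 55 and CDCA8 at 23, each with a CCAAT box close by, and in CDCA8 the CHR overlaps the nearest CCAAT box. NEK2 has CCAAT boxes at 66 and 34 bases and no CHR letters in this window. In CDCA3 the CHR begins 3 bases before the start and runs past it, so only its first letters are shown. Among genes with a RefSeq promoter of 300 bases, CHR letters were found in 7 of 9 mitosis genes down in both (77.8%), in 9 of 16 of the other mitosis genes (56.2%), in 13.1% of all genes down in both, in 14.3% of genes down after loss and up with gain, in 10.2% of all genes tested and in 15.4% of all 27305 promoters. CCAAT was found in 8 of the 9 (88.9%), in 35.9% of all genes tested and in 35.7% of all promoters. A match is a run of letters and not a measured binding site.

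The 4 linker histone genes tested were down in both by the means of the sets, though not on every array. Of 27 replication-dependent histone genes tested, H1-2, H1-3, H1-4, H1-5 and H2BC6 were down in both (18.5%, against 3.51%), and H2BC8 was opposed. Outside that list, the histone gene H4C6 was down in both and fell after siRNA (log2 -0.44, limma adjusted p = 0.0336; set means -0.41 and -0.02), and H2AC4 was opposed, as given above. Linker histones bind the DNA that enters and leaves the nucleosome. H1-5 had effects of -0.29 and -0.24 in the pairs and -0.18 and -0.06 in the sets. H1-2 had -0.11 and -0.24 in the pairs and -0.17 and -0.15 in the sets. H1-4 had -0.29 in pair 1 and -0.0015 in pair 2, so its place in the class rests on the sign of a value near 0. None of the 4 linker histone genes passed the test after siRNA, and after quantile normalization 1 of the 4 linker histone genes remained in the class. In pair 2 all 27 histone genes were below the control (median -0.24), while in pair 1 this held for 14 (median -0.02). The pair 2 median stayed below 0 under each scaling tried.

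The 120 bases before the start of these 4 genes are shown because they share their layout. Each holds the H1 box, a run of letters known from linker histone promoters (AAACACA), upstream of a CCAAT box. Capitals mark both motifs on either strand. The windows are chr6:26056471-26056590, minus strand, for H1-2, chr6:26234988-26235107, minus strand, for H1-3, chr6:26156209-26156328, plus strand, for H1-4, and chr6:27867589-27867708, minus strand, for H1-5.
H1-2: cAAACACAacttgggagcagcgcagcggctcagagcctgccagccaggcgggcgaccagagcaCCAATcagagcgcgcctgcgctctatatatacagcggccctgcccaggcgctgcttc
H1-3: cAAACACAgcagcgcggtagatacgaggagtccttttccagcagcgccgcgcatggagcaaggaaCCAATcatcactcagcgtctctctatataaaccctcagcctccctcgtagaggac
H1-4: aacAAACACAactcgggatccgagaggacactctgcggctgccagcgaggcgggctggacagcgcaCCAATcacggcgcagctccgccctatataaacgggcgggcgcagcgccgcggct
H1-5: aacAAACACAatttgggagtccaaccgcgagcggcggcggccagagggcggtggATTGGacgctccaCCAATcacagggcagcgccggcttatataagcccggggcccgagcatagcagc

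The H1 box begins 117 to 119 bases before the start in all 4 genes, and a CCAAT box 53 to 57 bases before it. All 4 of these promoters hold both motifs, against 5.76% of all 27305 promoters for the H1 box and 35.7% for CCAAT. Because the H1 box is known from linker histone promoters, finding it in these genes says nothing about their class.

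Other genes of DNA synthesis were also found among those down in both, at smaller effects. Of 39 DNA replication genes tested, FEN1, GINS1, LIG1, MCM4, POLA2 and POLE were down in both (15.4%, against 3.51% of all genes). CDC45 was down after loss and up with gain, and RPA3 the reverse. Of the 39 genes, 8 were lower than the vector in set 1 and 37 in set 2, against 6483 and 8533 of all 14434 genes. LIG1, the replicative DNA ligase, and MCM4, a subunit of the replicative helicase, were below their vectors on all 6 plasmid arrays. Without the array titled Y244A in set 1 the count was 15, and without Y244A in set 2 it was 3. RRM2, the small subunit of ribonucleotide reductase, was below its vector on all 6 arrays, with effects of -0.48 and -0.27 in the pairs and -0.18 and -0.13 in the sets. E2F2 and E2F3, transcription factors of S-phase entry, were also below their vectors on all 6; E2F3 had pair effects of -0.02 and -0.15 and set means of -0.17 and -0.20. None of the genes in this paragraph passed the test after siRNA.

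Among genes up in both, IDNK, a gluconate kinase, led the ranking. It read 73.2 and 88.5 in pair 1 and 78.0 and 87.3 in pair 2; the vectors read 67.5 and 84.1 and the 6 plasmids 82.7 to 98.1. Each siRNA array was above its control and each plasmid above its vector, with a mean of loss and gain of 0.24 (SE 0.086, limma unadjusted p = 0.0166, adjusted p = 1). ABO, the blood group glycosyltransferase, was likewise higher in both pairs and on all 6 plasmid arrays, with smallest effect 0.15. PHLDA3, a p53-induced inhibitor of AKT, C10orf95, DNAJC30 and the small RNA genes RNVU1-1, SNORA49 and SNORD116-24 completed the 8, and HMX1, at 0.12, was the next. Of 19 immediate early genes tested, FOS, JUND and EGR3 were up in both (15.8%, against 2.49%), with set means of 0.07 to 0.10, and FOSL2 and DUSP1 were up after loss and down with gain (10.5%, against 3.02%). FOS was above its vector on 3 of 6 arrays. The interleukin-2 receptor alpha gene IL2RA had pair effects of 0.31 and 0.27 and set means of 0.12 and 0.06. ISG20, an interferon-induced exonuclease, had effects of 0.09 to 0.14 in all 4.

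Lists of signalling, stress and metabolism genes gave 0 to 3 members in any 1 direction of either class. Of 23 lysosome and autophagy genes tested, CTSB and NEU1 were up after loss and down with gain (8.7%, against 3.02% of all genes). They encode a protease and a sialidase of the lysosome and were below the vector on 5 of 6 arrays each. After loss, 3 of the 23 passed the test as higher, against 59 of all 14434 genes (0.409%). HGSNAT, CTSD and DRAM1 rose after loss, by 0.68, 0.35 and 0.67, and were in no class, since each was higher than the vector in set 1 and lower in set 2. TFEB, the transcription factor of lysosomal genes, was down in both (4.35%, against 3.51% of all genes). It was below the vector on all 6 arrays, with effects of -0.06 to -0.21. PRF1, perforin of cytotoxic granules, rose by 0.47 after loss (SE 0.099, limma adjusted p = 0.0492) and had set means of 0.31 and -0.13. Among 14 genes of the NF-kB response, TRAF1 was above the vector on all 6 arrays, with pair effects of 0.88 and 0.02. Of 22 genes of hypoxia and glycolysis, PFKFB3 was up in both (4.55%, against 2.49% of all genes) and above the vector on all 6 arrays (pair effects 1.18 and 0.04). PFKFB4 was up after loss and down with gain (4.55%, against 3.02%) and below the vector on all 6 (set means -0.18 and -0.17). Both make a regulator of glycolysis. SQLE, an enzyme of cholesterol synthesis, had pair effects of -0.27 and -0.17 and set means of 0.60 and 0.007. FOXO3, a transcription factor of quiescence, had pair effects of 0.19 and 0.20 and set means of -0.26 and -0.03. Of 22 ribosome biogenesis genes, all were lower in pair 1 under each scaling (median -0.43 as deposited), and DDX21 and POLR1A were down in both (9.09%, against 3.51% of all genes). Of the markers of other cells, none of 4 B-cell, 6 T-cell and 6 monocyte genes tested was in either class. PDGFRB, a growth factor receptor of fibroblasts, was opposed, 1 of 7 epithelial and fibroblast markers, with pair effects of -0.16 and -0.09 and set means of 0.13 and 0.08.

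The JAK3 arm, whose arrays chose none of these genes, gives an outside reading. JAK3 siRNA raised 87 genes (0.603%) and lowered 108 (0.748%) at a limma adjusted p under 0.05. Of the 436 genes up after EZH2 loss and down with gain, 59.6% were higher after JAK3 siRNA (median log2 0.03), against 45.7% of all genes (median -0.01). Of the 327 genes down after loss and up with gain, 59% were lower after JAK3 siRNA (median -0.02), against 54.2% of all. Of the 506 genes down in both, 60.9% were lower (median -0.03). The 360 genes up in both had 53.1% higher. As higher, 8 of the 436, 3 of the 327, 2 of the 506 and 0 of the 360 passed, against 0.603% of all. As lower, 2, 3, 11 and 2 passed in turn, against 0.748% of all. DUSP6, a phosphatase of the ERK kinases, was below its control or vector in all 4 of the EZH2 comparisons, by 0.12 to 0.23, and its JAK3 effect was -1.17. EZH2 itself had a JAK3 effect of -0.19 (SE 0.088, limma adjusted p = 0.4).

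The SET-deleted plasmid array had an EZH2 signal within the range of the full-length plasmids, at 1471. It lay below both vectors in 293 of the 506 genes down in both and in 195 of the 436 genes up after loss and down with gain, against 2811 of all 14434 genes. Of the 327 genes down after loss and up with gain, it lay above both vectors in 71 and below both in 69, against 1084 and 2811 of all. This is 1 array, and it shares its vectors with the gain. For DNASE1L1 it read 62.4, within the range of the full-length plasmids, and for TMA7 298, above both vectors.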

How the data were processed

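Total RNA from 17 NKYS samples was measured on single-colour expression arrays. The authors deposited linear intensity values for 28869 probe sets; their background correction and normalization are not given in the sources used here. Depth has no meaning for arrays, and the number of arrays limits precision.

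Intensities were converted to log2. Of the probe sets, 19310 carry 1 gene symbol, 1752 several and 7807 none; of 18377 genes, the probe set with the highest mean was kept, and genes under the 30th percentile of mean signal were left out (EZH2 and JAK3 always kept), leaving 14434. limma 3.58.1 in R 4.3.3 (with data.table, version 1.17.8) was used, with Benjamini-Hochberg adjustment over all 14434 genes and a threshold of 0.05. Loss was fitted on the 8 siRNA arrays with the EZH2 pair as a block, gain on 2 vector and 6 plasmid arrays with the set as a block, and loss minus gain and their mean on the 12 arrays with both blocks. Loss minus gain, their mean and every sign class therefore rest on the same values.

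The pairs come from the titles, which name the control of each siRNA array, and the sets from the titles or the transfection field. Deviations of same-numbered arrays correlated at r = -0.085 across genes in the pairs and at 0.842 in the sets. The fits and the sign rule were tested on simulated data with planted changes of opposite sign in loss and gain. These changes were larger than those of nearly all genes here, and none differed between the sets. The simulation therefore does not show how the sign rule works at the small effects reported. Genes named are EZH2, the subunits of Polycomb repressive complex 2, the 10 opposed genes in each direction and the 8 alike genes in each direction with the largest smallest effect over both pairs and both set means, and up to 3 opposed or alike members of each gene list by the same measure. Genes called after siRNA that fell in a class or belong to a list, further members of the mitosis, replication and histone lists, and members at the edge of a range were named after their values were seen. The comparison and the 28 gene lists were chosen with earlier results of these data known. Alternatives covered normalization, filters, probe sets, tests, blocks, effect sizes and leaving out each array. Promoter windows are from RefSeq, GRCh38.p14.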

Additional observations from a re-analysis of the deposited data

Results flagged for a closer look

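Of 98 measures (single genes and the median of the mitosis list) examined over the 6 plasmid arrays, 5 had 1 array whose gap to the nearest other array, as a share of the range, passed Dixon's 95% limit; chance alone flags about 1 in 20. ABCA3 differed from its vector by -0.412 on the set 2 array titled Y244A. SNORD77 differed by 0.869 on the set 1 array titled WT. The set 1 array titled Y244A was the array apart for IRF4 (0.185), GADD45A (0.432) and CTSB (0.136).

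PHF1, RBBP7 and SUZ12, of Polycomb repressive complex 2, had all 3 plasmids of set 1 above their vector, by a mean of 0.395, 0.366 and 0.442, and all 3 plasmids of set 2 below theirs. The difference between the sets was not tested for these genes.

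The array with the SET-deleted plasmid, which entered no comparison of loss and gain, read EZH2 at 2.29 above the mean of the vectors on the log2 scale, beside 1.85 for the full-length plasmids.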

How the results depend on the processing

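The 153 calls after EZH2 siRNA became 99 with quantile normalization, 240 with trended and robust moderation, 20 without the replicate block of pairs and 32 with cyclic loess, and 0 with no filter, with array weights, or with 12 or 16 arrays in 1 fit; leaving out an array gave 0 to 1516. EZH2 itself was below its control in all 16 alternatives and missed the threshold in 6 of them. Loss minus gain, their mean and gain gave 0 calls under each of 20 to 23 alternatives. The 763 opposed genes became 1152 with no filter, 503 with a filter at the 50th percentile, 147 with 1 sign in all 6 plasmids, 1308 with cyclic loess and 629 to 1678 with a plasmid array left out; at 0.1, 0.2 and 0.3 in each effect they were 37, 4 and 1. The 866 alike genes became 148 with 1 sign in all 6 plasmids, 1626 with cyclic loess, and 58, 8 and 0 at those sizes. The 10 mitosis genes down in both became 6 with median centring, 16 with cyclic loess, 0 with 1 sign in all 6 plasmids, 5 to 16 with a plasmid array left out, and 3, 1 and 0 at those sizes. With both pairs and set 1 alone, 10 mitosis genes were down in both and 16 opposed; with set 2 alone 26 and 0, where 21% of all genes were down in both. The correlation of loss and gain was 0.277 for pair 2 and set 2 alone. The 35 fitted results of named genes kept their direction in all 793 values. These genes were chosen for 1 sign in both pairs and 1 sign in both sets. Leaving out a pair or a set therefore could not reverse them, and the kept directions are no evidence of stability. Not all kept their class. Of the 8 genes named as up in both, 4 kept it with quantile normalization and 4 with cyclic loess. With a filter at the 50th percentile, 4 of 10 named as up after loss and down with gain and 5 of 8 named as down in both were left. No class count was possible without a whole pair or set. Cyclic loess, the sets taken alone, an array spread covariate, the list medians under each scaling, the permutation within sets and the mitosis counts were chosen after seeing the data. The cause of these changes was not tested. Signal near the filter floor of 39.6 limits the weakest genes.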
